A study of Mus musculus with 24 samples.

Results

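Open chromatin was compared between liver of C57BL/6J mice on a Reversal regimen, 8 weeks of high fat diet and then 8 weeks of control diet, and liver of C57BL/6J mice on Control, 16 weeks of control diet. Peaks of the Reversal list and the Control list on chromosomes 1 to 19 were merged where they shared at least 1 bp. This gave 37469 regions, next to 49364 in the union of all 6 lists of the series, which also holds C57BL/6J HF (16 weeks of high fat diet) and A/J Reversal, HF and Control. The assay was FAIRE-seq with 2 libraries per group, and each group was given as 1 peak list, so that no difference between lists has a replicate check and no test was run. All mice of this comparison carried the same C57BL/6J background, no transgene is named in the labels, and the diet tag of Reversal names 16 weeks of control diet where the feeding protocol names 8, which was followed.

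FAIRE recovers DNA that is not held by crosslinked nucleosomes, and so marks promoters, enhancers and other sites where proteins displace nucleosomes. In liver such sites bind hepatocyte factors and the nuclear receptors that read fatty acids, sterols and bile acids. C57BL/6J mice are known to become obese with a fatty liver on high fat diet, and A/J mice are known to be more resistant. The series asks whether chromatin changed by that diet stays changed after the diet ends. No mice were sampled when the diets were switched, and the shorter high fat diet and the return to control diet cannot be told apart. The liver label was not checked against marker genes, because the lists name no genes, and no gene positions or sequence in their build, mm9, were used here. In bulk liver, fewer cells open at a site and a less open site per cell cannot be told apart.

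The Reversal list held 31669 peaks on chromosomes 1 to 19 and the Control list 33948. Their median peak widths were 453 bp on Reversal and 413 bp on Control, and the lowest signals listed were 0.0965 and 0.0849. Signal is a peak value set by the authors, in unstated units, and serves here only to rank the peaks of 1 list. Peak names carry serial numbers, which add up to 176298 on Reversal and 244259 on Control, so that the lists held 18.6% and 14.5% of the numbered peaks. A region without a peak may therefore still have been open below the end of its list. These differences between the lists move with every class below, and their part in the results was not tested. The number of reads behind either list is unknown here.

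Most open chromatin was found on both regimens. A peak of both lists was present in 27552 regions, 73.5% of all (95% Wilson interval 73.1 to 74.0). Reversal-only regions numbered 3932, which is 10.5% of all regions (10.2 to 10.8), and Control-only regions 5985, which is 16% (15.6 to 16.3). By covered sequence the classes were smaller, since Reversal-only peaks made up 7.11% of the bases of the Reversal list and Control-only peaks 10.01% of those of the Control list. The order of these counts depended on the length of the lists. With the strongest 30000 peaks of each list, 4365 regions were Reversal-only and 4190 Control-only, so that the order turned round. The intervals on these shares allow for counting error alone.

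The merging rule left few regions near its threshold. Of 28148 pairs of overlapping peaks only 3 shared fewer than 50 bp, and the median overlap was 450 bp. Just outside the rule stood 474 Reversal-only peaks within 500 bp of a Control peak and 377 Control-only peaks within 500 bp of a Reversal peak.

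List-only regions lay at the weak end of their lists in both directions. Percentile ranks here run to 100 for the strongest peak of a list. The median rank was 14.5 for Reversal-only regions in the Reversal list and also 14.5 for Control-only regions in the Control list, with quartiles of 6.76 to 25.1 and 6.74 to 24.4. In the weakest 10 percentile points, 45.5% of the 3138 regions with a Reversal peak were Reversal-only (43.8 to 47.3), and 65.0% of the 3321 regions with a Control peak were Control-only (63.4 to 66.6). Between ranks 40 and 50 both shares were alike, at 5.74% (4.98 to 6.61) and 5.59% (4.86 to 6.42). Above rank 50, 39 Reversal-only and 19 Control-only regions were left. Above rank 70 there was none among 9491 regions with a Reversal peak and none among 10143 with a Control peak, counts of 0 that allow shares of up to 0.0316% and 0.0296%.

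**Figure D1:**
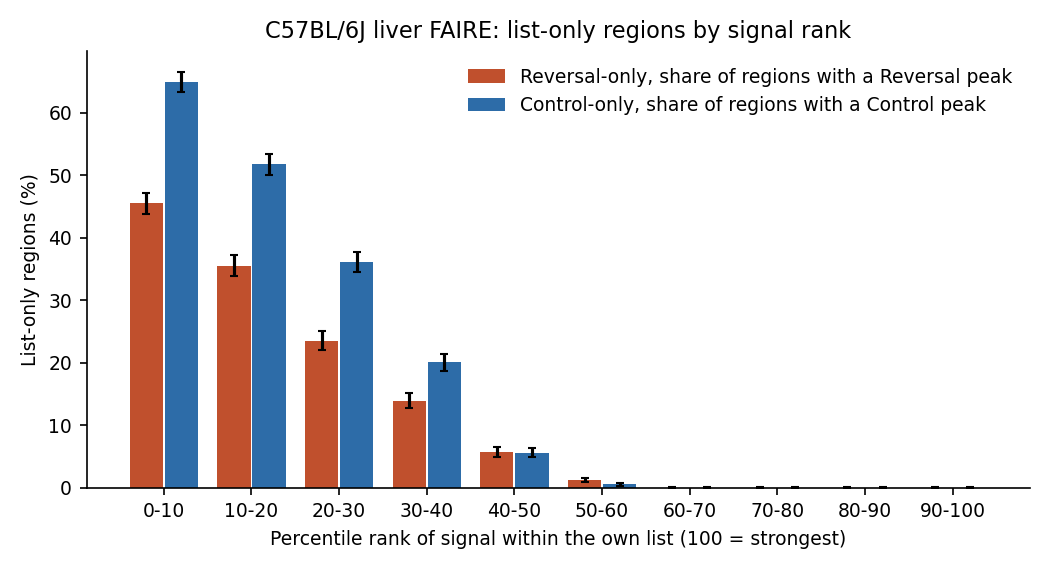
Share of regions that were Reversal-only among regions with a Reversal peak, and Control-only among regions with a Control peak, in bins of 10 percentile points of signal rank within the own list (bars, with 95% Wilson intervals). Both shares are highest in the weakest bin, at 45.5% and 65.0%, and are 5.74% and 5.59% between ranks 40 and 50.

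List-only peaks were also narrow. Reversal-only regions had a median width of 304 bp (quartiles 258 and 391) and Control-only regions 278 bp (247 and 333), while shared regions had 501 bp in the Reversal list and 487 bp in the Control list. Much of this goes with rank, since in the weakest 10 percentile points the median was 285 bp for Reversal-only against 281 bp for shared regions, both in the Reversal list. In the Control list the same bin had 266 bp for Control-only and 278 bp for shared regions. Widths over 1000 bp were found in 11 Reversal-only regions, the widest of 1863 bp, and in 55 Control-only regions, the widest of 2457 bp.

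The 2 classes were equal in rank but stood apart in the lists that had no part in defining them. In the C57BL/6J HF list a peak was present at 54.7% of Reversal-only regions (53.1 to 56.3) and at 25.7% of Control-only regions (24.7 to 26.9). In A/J, the other strain, the gap was wider. The A/J Reversal list held a peak at 70.4% of Reversal-only regions (69.0 to 71.8) and at 11.7% of Control-only regions (10.9 to 12.5). The A/J HF list did so at 65.9% (64.4 to 67.4) and 15.3% (14.4 to 16.2). The A/J Control list held a peak at 73.3% of C57BL/6J Reversal-only regions (71.9 to 74.7), against 14.6% of C57BL/6J Control-only regions (13.7 to 15.5). Shared regions had a peak in the A/J Control list in 81.7% of cases over all ranks (81.2 to 82.1), but most shared regions were stronger than list-only regions. In all 3 A/J lists a peak was present at 2399 Reversal-only regions, 61.0%, and at 555 Control-only regions, 9.27%.

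**Figure D2:**
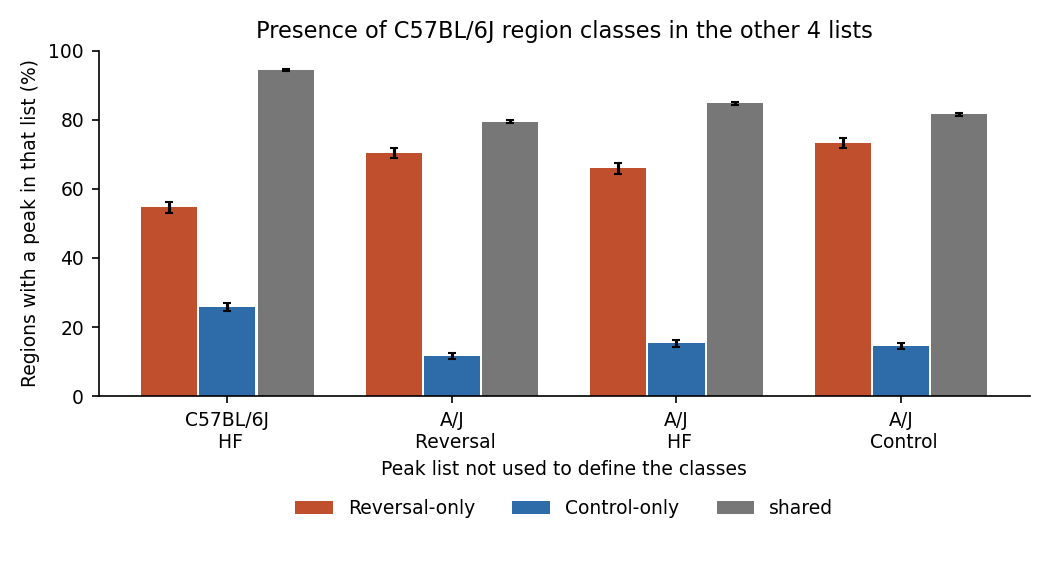
Share of Reversal-only, Control-only and shared C57BL/6J regions that held a peak in each of the other 4 lists (bars, with 95% Wilson intervals). Reversal-only regions stand between 54.7% and 73.3% and Control-only regions between 11.7% and 25.7%, with shared regions, most of which are stronger peaks, highest in each list when all ranks are pooled.

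The same split was present in each rank bin up to rank 60. Between ranks 0 and 10, the A/J Control list held a peak at 60.7% of Reversal-only regions (58.2 to 63.2) and at 16.2% of Control-only regions (14.7 to 17.8). Between ranks 30 and 40 the shares were 92.0% (89.1 to 94.2) and 11.3% (9.16 to 14.0). With rank the Reversal-only share was thus higher and the Control-only share lower in the A/J Control list. In the A/J HF list the Control-only share went the other way, from 13.9% between ranks 0 and 10 to 21.0% between ranks 40 and 50. Between ranks 50 and 60, 97.4% of 38 Reversal-only regions had an A/J Control peak, and 0 of 18 Control-only regions, a count that allows a share of up to 16.7%. At equal rank in the Reversal list, shared regions had A/J Control peaks less often than Reversal-only regions in each bin up to rank 60, with 36.8% between ranks 0 and 10 and 70.9% between ranks 30 and 40. At equal rank in the Control list they had them more often than Control-only regions, with 70.3% and 65.6% in those bins. Toward the HF list of the same strain both classes went the same way with rank. There the shares were 35.3% (32.9 to 37.8) and 14.3% (12.9 to 15.8) between ranks 0 and 10. Between ranks 30 and 40 they were 83.3% (79.6 to 86.5) and 45.8% (42.1 to 49.6). Shared regions of equal Reversal rank held an HF peak more often than Reversal-only regions, in each bin up to rank 60. Their HF shares were 60.3% between ranks 0 and 10 and 97.0% between ranks 30 and 40. Shared regions of equal Control rank also exceeded Control-only regions in each of these bins, with 68.7% and 89.8%. Toward HF both list-only classes thus lay below shared regions of equal rank.

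**Figure D3:**
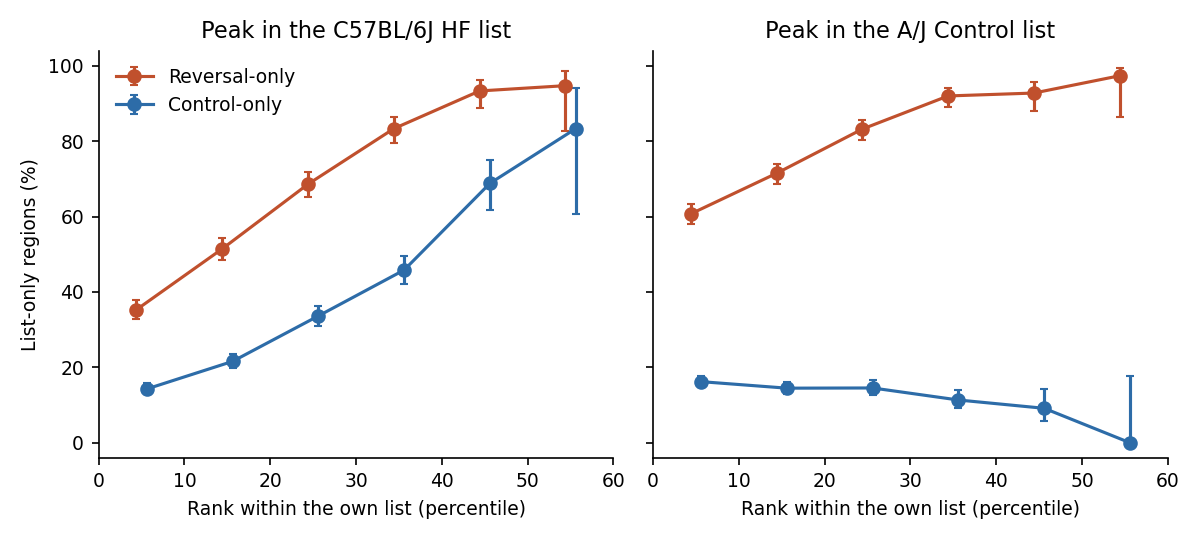
Share of Reversal-only and Control-only regions with a peak in the C57BL/6J HF list (left) and in the A/J Control list (right), by signal rank within the own list (points at bin centres, moved slightly apart, 95% Wilson intervals, bins of at least 15 regions). Toward HF both classes climb with rank, to 94.7% and 83.3%, whereas toward A/J Control the Reversal-only share climbs to 97.4% and the Control-only share stays at or under 16.2%.

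Regions with and without an HF peak were set apart within each class. The 2151 Reversal-only regions with an HF peak had a median signal of 0.122 and a median width of 319 bp, and 83.9% were open in A/J, with a peak on 1 diet or more (82.3 to 85.4). The 1781 Reversal-only regions without an HF peak, open on Reversal alone within this strain, had a median signal of 0.107 and a median width of 289 bp, and still 68.9% of them held an A/J peak (66.8 to 71.1). Of the 1541 Control-only regions with an HF peak, open on both unbroken diets and missing on Reversal, 30.3% held an A/J peak (28.1 to 32.6). Of the 4444 Control-only regions without one the share was 15.5% (14.5 to 16.6). Reversal-only regions without an HF peak were thus found in A/J more often than Control-only regions with one.

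Most list-only regions did not differ between the A/J Reversal and A/J Control lists. Regions with a peak in 1 and not both of the A/J Reversal and A/J Control lists numbered 312 among C57BL/6J Reversal-only regions, and 31.7% of these had it in A/J Reversal (26.8 to 37.1). Among Control-only regions 280 did so, 19.3% of them in A/J Reversal (15.1 to 24.3), and among shared regions 1004, of which 201 had it in A/J Reversal (17.7 to 22.6%). A peak in the Reversal list and none in the Control list of both strains was found at 99 regions, 2.52% of the Reversal-only class. The same A/J pattern was found at 0.90% of Control-only and 0.73% of shared regions. The opposite A/J pattern, a peak in A/J Control and none in A/J Reversal, was more common, at 213 Reversal-only regions, 5.42%. It was found at 3.78% of Control-only and 2.91% of shared regions, and these classes were not matched for rank. Far more Reversal-only regions, 2669, had peaks in both of these A/J lists.

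The classes lay in different surroundings. The median distance to the nearest shared region, between midpoints, was 7.04 kb for Reversal-only and 32.9 kb for Control-only regions, while shared regions lay 11.0 kb from the next shared region. Within 10 kb of a shared region stood 59.0% of Reversal-only and 28.5% of Control-only regions. A Reversal-only region lay within 10 kb of 22.8% of the other Reversal-only regions and of 13.4% of shared regions. A Control-only region lay within 10 kb of 10.7% of the other Control-only regions, near the 9.52% of shared regions with a Control-only region at that distance. In windows of 1 Mb with fewer than 5 shared regions lay 168 Reversal-only regions, 4.27% of the class, and 1800 Control-only regions, 30.1% of the class, next to 7.47% of shared regions.

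Distance to shared chromatin went with presence in A/J. Of the 1704 Control-only regions within 10 kb of a shared region 34.0% had a peak on 1 A/J diet or more (31.8 to 36.3). Of the 1620 that lay over 100 kb from any shared region 6.17% did so (5.10 to 7.45). Reversal-only regions within 10 kb had an A/J peak in 80.1% of cases (78.4 to 81.7), and the 197 over 100 kb away in 66.5% (59.6 to 72.7).

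Chromosomes differed in the same way. Reversal-only regions made up 39.6% of all 9917 list-only regions (38.7 to 40.6). Chromosome 11, with 19.2 shared regions per Mb the densest, had 337 Reversal-only and 354 Control-only regions, a Reversal-only share of 48.8% (45.1 to 52.5). Chromosome 3, with 7.99 shared regions per Mb, had 161 and 363, a share of 30.7% (26.9 to 34.8). Over the 19 chromosomes this share went with the density of shared regions, with Spearman's rho of 0.83 and Pearson's r of 0.86, given as a description because all points come from the same 2 lists. The counts of Control-only regions relative to regions with a Control peak ran between 13.1% on chromosome 11 and 22.6% on chromosome 14. Those of Reversal-only regions relative to regions with a Reversal peak ran only between 11.0% on chromosome 12 and 14.8% on chromosome 6.

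**Figure D4:**
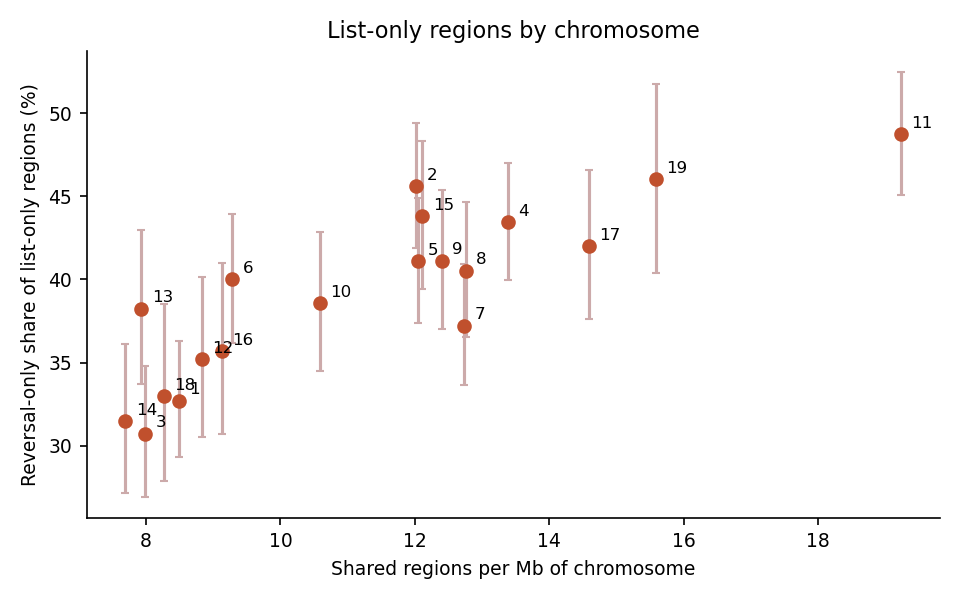
Share of list-only regions that were Reversal-only on each of the 19 chromosomes (numbered points, with 95% Wilson intervals) against the number of shared regions per Mb up to the last region. The share is 30.7% on chromosome 3 and 48.8% on chromosome 11, and it is higher where shared regions are denser.

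At the scale of 1 Mb, the windows with most Reversal-only regions were rich in shared chromatin. chr2:167000001-168000000 held 19 Reversal-only, 5 Control-only and 91 shared regions. chr5:125000001-126000000 held 16, 5 and 67, and chr10:80000001-81000000 held 16, 10 and 130. The windows with most Control-only regions also held many shared regions, though fewer than those windows, and almost no Reversal-only region. chr1:85000001-86000000 had 0 Reversal-only, 21 Control-only and 43 shared regions, chr8:19000001-20000000 had 0, 19 and 51, and chr1:90000001-91000000 had 2, 16 and 26. Positions are in mm9, counted from 1, and the genes at them are not named here.

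The 5 strongest Reversal-only regions were all found in the 3 A/J lists. The strongest, chr17:85132042-85132367, had a Reversal peak of signal 0.298 at rank 60.4 and no Control peak. Its peak ranked at 39.1 in the C57BL/6J HF list, 62.9 in A/J Reversal, 45.8 in A/J HF and 64.7 in A/J Control, so that of the 6 lists only C57BL/6J Control lacked it. At chr12:110089070-110089753 the Reversal peak was 684 bp wide at rank 57.4 (signal 0.271), and the HF peak stood at rank 52.2. In A/J the strongest peak at this site was wider and of higher rank, 1931 bp at rank 82.9 on Reversal and 1954 bp at rank 89.0 on Control. The second strongest, chr7:99109798-99110147 at rank 59.5 on Reversal, had no peak on HF either, and ranked at 61.6 in A/J Reversal, 58.1 in A/J HF and 17.3 in A/J Control. The other 2, chr6:31040867-31041191 and chr3:101317828-101318328, ranked at 58.2 and 56.4 on Reversal and held a peak in HF and in every A/J list.

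The 5 strongest Control-only regions were all found in HF and, with 1 exception, in no A/J list. chr1:87478224-87478508, 285 bp wide, had a Control signal of 0.240 at rank 63.4 and an HF peak at rank 44.3. chr1:20635506-20635853, chr3:46725833-46726163 and chr3:118018509-118018848 ranked at 56.2, 55.6 and 55.5 on Control and at 36.0, 25.2 and 20.4 on HF. The exception, chr2:163684031-163684635, was a 605 bp peak at rank 55.4 on Control with a weak HF peak at rank 7.05 and an A/J Reversal peak at rank 14.8. All 5 were thus missing on Reversal alone within C57BL/6J.

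Signal order in shared regions was close between the lists. To keep both rankings over the same regions, the 27552 shared regions were ranked by their strongest peak in each list, and the rank on Control was taken from the rank on Reversal. Spearman's rho between the rankings was 0.90 across regions, which are not independent replicates. The median absolute change was 6.45 percentile points, and the quartiles of the signed change were -6.98 and 5.94. A rank higher on Reversal by 20 points or more was found in 1982 regions, 7.19%, and a rank lower by as much in 1532 regions, 5.56%. When ranks were taken within each whole list, which differ in length, the counts were 1460 higher and 2635 lower, so that the order of these counts depends on the ranking. Weak regions differed more than strong ones at mean ranks that lie equally far from an end of the scale. Between mean ranks 20 and 30, 611 of 3211 regions were 20 points or more higher and 469 lower, and between 70 and 80, 4 of 2680 were higher and 2 lower.

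Regions that ranked higher and regions that ranked lower on Reversal differed in the other lists. Those higher on Reversal had median ranks of 44.5 on Reversal and 14.4 on Control, by choice, and 98.4% of them held an HF peak (97.8 to 98.9) and 94.9% an A/J Control peak (93.8 to 95.7). Those lower on Reversal had 14.8 on Reversal and 41.6 on Control, and 92.7% held an HF peak (91.3 to 93.9), but only 24.5% an A/J Control peak (22.5 to 26.8). For A/J Reversal the shares were 94.9% (93.8 to 95.8) and 20.4% (18.5 to 22.5). Over all shared regions, of all ranks, the shares were 94.5% for HF, 81.7% for A/J Control and 79.5% for A/J Reversal. Both HF shares thus lay near that of all shared regions. The split toward A/J seen for list-only regions was present again among regions with a peak in both lists, whereas toward HF it was small.

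For regions with a peak in all 6 lists, ranks were taken anew among these regions and could be compared throughout. They are not on the scale of the shared ranks above. Each such region kept its call from the ranking of all shared regions. The 1822 such regions that ranked higher on Reversal had medians of 31.1 on Reversal, 25.4 on HF and 10.2 on Control in C57BL/6J. In A/J their medians were 45.6 on Reversal, 34.1 on HF and 45.1 on Control. On HF they lay above the midpoint of the Reversal and Control ranks in 65.1% of cases (62.9 to 67.3). The share was 46.6% (45.8 to 47.3) for regions within 20 points and 35.7% (30.3 to 41.5) for regions that ranked lower on Reversal. Just 277 regions that ranked lower on Reversal had peaks in all lists, with medians of 7.64 on Reversal, 18.7 on HF and 33.7 on Control, against 9.41, 13.8 and 8.60 in A/J. In both groups the medians on A/J Reversal and A/J Control were close. The groups were chosen by the difference between the C57BL/6J lists, and the A/J lists had no part in that choice. The sizes of the differences in the 2 strains can therefore not be compared.

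**Figure D5:**
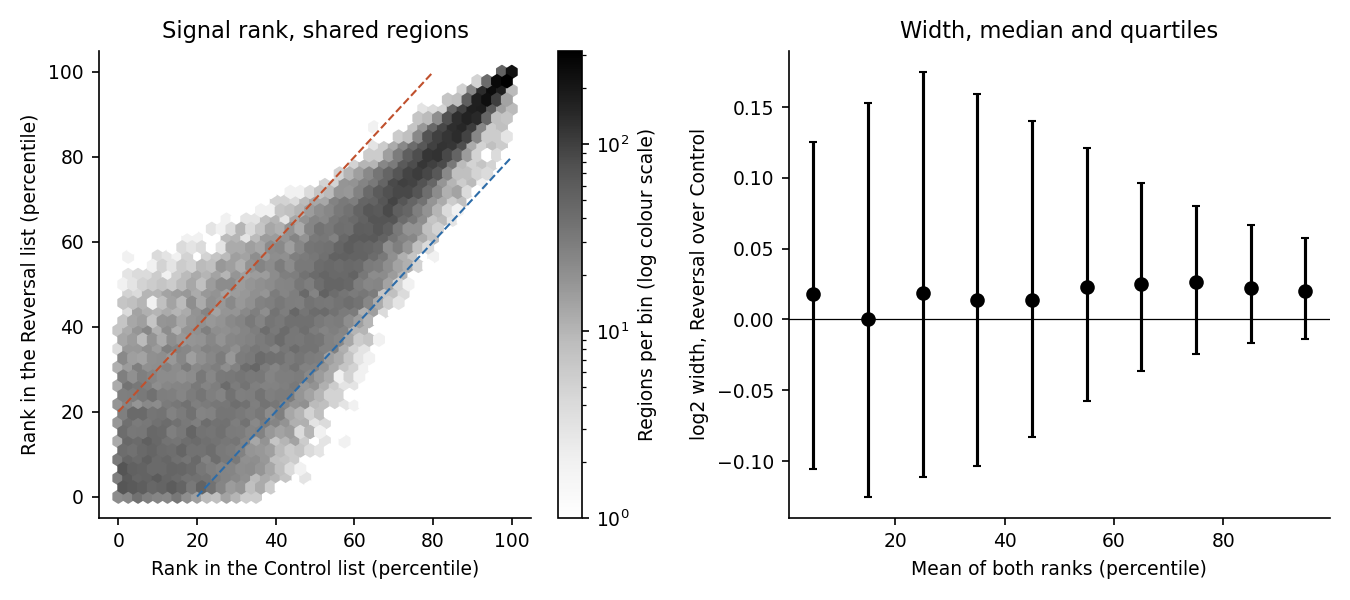
Left, percentile rank of the 27552 shared regions in the Reversal list against that in the Control list (grey shading on a log scale gives regions per bin, dashed lines mark 20 points higher in red and 20 points lower in blue). Right, log2 of width on Reversal over width on Control by mean rank (points are medians, bars quartiles), with medians between 0 and 0.03 and the widest spread at weak ranks.

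The largest rank differences were at sites that were weak in 1 list and of medium rank in the other. In the list where they were weak, their shared ranks lay between 2.16 and 15.7. At chr11:31724454-31725178 the shared rank was 59.2 on Reversal and 3.35 on Control, a difference of 55.9 points, with a peak of 725 bp on Reversal and 272 bp on Control. Within the whole lists its HF peak ranked at 54.7 and its A/J peaks at 76.4 on Reversal, 60.5 on HF and 79.7 on Control. At chr13:34146208-34146679 the shared rank was 67.7 on Reversal and 12.3 on Control, and the HF peak ranked at 70.4 in its list. chr17:34355480-34356089 and chr16:15885461-15885866 followed, with differences of 54.9 and 54.3 points. All 4 were present in HF, A/J Reversal and A/J HF, and 3 of them in A/J Control.

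On the other side stood chr1:44784438-44784803, with a shared rank of 2.16 on Reversal and 48.5 on Control, a difference of -46.4 points. Its HF peak ranked at 34.8, and it had no A/J peak. chr2:87727471-87727803, chr14:88744818-88745095 and chr11:26365332-26365619 had differences of -46.0, -45.7 and -44.9 points. Each of these 3 had an HF peak at rank 48.6, 53.0 and 32.0 and, of the A/J lists, a peak in A/J HF alone. None of the 4 had a peak in A/J Reversal or A/J Control, in contrast to the 4 sites that ranked higher.

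The strongest shared regions held the top of both lists with similar widths. chr2:98506210-98507705 ranked first in both lists, with signals of 204 on Reversal and 183 on Control and widths of 1489 and 1495 bp. chr4:79648077-79651287 was second in both, 3211 bp wide on Reversal and 3163 bp on Control, with signals of 174 and 101. chr13:85265970-85267359 was 1390 bp wide on Reversal and 1361 bp on Control, with signals of 169 and 96.4. Whether signals are on 1 scale in both lists is not known. The median signals of shared regions were 0.263 on Reversal and 0.211 on Control, far below those of these 3 sites. Whether reads map to a single place at these sites was not checked, so their signals may not measure openness. These 3 sites were also among the strongest of HF and of all A/J lists, at ranks of at least 99.9.

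Width differed little in shared regions. The median width was 501 bp on Reversal and 487 bp on Control, and the median log2 ratio of width was 0.020 (95% interval of the median 0.019 to 0.021). This interval takes regions of 1 pair of lists as independent, and covers no variation between libraries or mice. On Reversal 57.2% of shared regions were wider and 41.9% narrower. A width at least 1.5-fold larger was found in 679 regions, 2.46%, and at least 1.5-fold smaller in 478 regions, 1.73%. Relative to the median ratio these counts were 640 and 507. The medians of the whole lists lay further apart, at 453 bp on Reversal and 413 bp on Control, and the Control list held more of the narrow list-only peaks.

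Width and rank moved together across regions, with Spearman's rho of 0.61 and Pearson's r of 0.51 over 27552 regions, which share their libraries and their peak calls. Regions 20 points or more higher in rank had a median log2 width ratio of 0.29 and those 20 points or more lower -0.16. Of the 679 wider regions 234 also ranked higher and 4 ranked lower, and of the 478 narrower regions 57 ranked lower and 4 higher. The wider regions held an A/J Control peak in 91.0% of cases (88.6 to 92.9) and the narrower regions in 74.7% (70.6 to 78.4), with 81.7% over all shared regions.

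Differences in width came mostly from 1 edge. In 26992 shared regions, 98.0%, each list had a single peak, and the summits of both peaks lay a median of 7 bp apart, within 50 bp in 96.2% of these regions. Among the 672 of them that were 1.5-fold wider on Reversal, 516 (76.8%) reached at least 50 bp further on 1 side and 156 on both sides. Among the 466 that were 1.5-fold narrower, 390 (83.7%) were shorter by 50 bp or more on 1 side and 76 on both. The summit stayed within 50 bp in 643 of the wider and 448 of the narrower regions. Regions split into more peaks on Reversal numbered 157, and those split into more peaks on Control 390.

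The largest gains in width were at chr19:4064336-4065764, 1429 bp on Reversal and 294 bp on Control with a log2 ratio of 2.28, and at chr2:27454490-27455691, 1202 bp on Reversal and 285 bp on Control. There the strongest HF peaks were 871 and 1398 bp wide. In A/J the strongest peak at the site on chromosome 2 was 1704 bp wide on Reversal and 1782 bp on Control, while that at the site on chromosome 19 was 573 bp on Reversal and 581 bp on Control. chr15:3194536-3196386, 1851 bp on Reversal and 441 bp on Control, had a log2 ratio of 2.07. Its strongest peak was 792 bp wide on HF, and 468 bp on A/J Reversal and 612 bp on A/J Control. chr15:58830585-58831857 had a log2 ratio of 1.97, with 1273 bp on Reversal and 324 bp on Control. Its strongest A/J peaks were 1348 bp wide on Reversal and 1365 bp on Control. All 4 sites also ranked higher on Reversal, by 24.3 to 39.2 points.

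The largest loss of width was at chr9:71062997-71064464, 330 bp on Reversal and 1468 bp on Control with a log2 ratio of -2.15. There the strongest HF peak was 302 bp wide. This site was followed by chr2:156665450-156667295, 464 bp on Reversal and 1846 bp on Control, and by chr7:51923384-51924956, 425 bp on Reversal and 1573 bp on Control. At these 2 sites the strongest HF peaks were 465 and 414 bp wide, near the widths on Reversal, and any further HF peak was not counted. Their ranks differed by 1.78 and 4.61 points, higher on Reversal, while the site on chromosome 9 had a rank change of -13.2 points, with 32.6 on Reversal and 45.8 on Control. At chr5:140387915-140388865 the peak was 264 bp wide on Reversal and 951 bp on Control, and no HF peak was listed.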

How the data were processed

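FAIRE-seq peak lists of mouse liver were used, 1 list for each of 6 groups of 2 libraries. Bowtie2, TopHat, DESeq2 and the mm9 build are listed, without a role, per the submitters' processing notes. The peak caller, and whether libraries were pooled, are not given in the sources used here. Strain and diet of a list are known from its name. The deposited signal per peak is the authors' value on an unstated scale, and where a list ends decides which weak regions have a peak. Whether the replicates of each group are different mice is not stated in the labels. The RNA tables were not used here.

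Peaks of chromosomes 1 to 19 were merged at an overlap of at least 1 bp. Each region was described by its summed peak width, its strongest signal and the percentile rank of that signal. Changes of 20 percentile points and of 1.5-fold were counted. Shares have 95% Wilson intervals. Merging and gains in width were tested on simulated lists made from the Control list. No change of rank and no loss of width was simulated. Python 3.11.15, numpy, pandas and scipy were used. Members, lists and rules were chosen with earlier results of these data known. Named were the 5 strongest list-only regions of each class, the 3 strongest shared regions, the 4 single-peak regions with the largest change of rank and of width in each direction, and the 3 windows of 1 Mb with most list-only regions. Regions of chromosome 18 were counted and not named. Splits by width, by distance to a shared region and by HF peak were chosen after the data were seen.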

Additional observations from a re-analysis of the deposited data

How the results depend on the processing

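The result that Reversal-only regions were found in HF and in A/J more often than Control-only regions held under all 6 changes of overlap rule, list length or minimum width that were tried. List length and minimum width were changed in the Reversal and Control lists alone, and the HF and A/J lists were kept whole. With at least 50% of both peaks required to overlap, the shares with an HF peak were 59.7% of Reversal-only and 33.8% of Control-only regions, and those with a peak in any A/J list 78.8% and 28.4%. With the strongest 30000 peaks of each list they were 64.9% and 38.2% for HF, and 80.0% and 22.8% for A/J. With peaks of 250 bp or wider the HF shares were 65.2% and 32.4%, the A/J share of Control-only regions 21.9% and the median log2 width ratio 0.018. With peaks up to 500 bp apart merged, the A/J share of Control-only regions was 17.5%. With the strongest 20000 peaks of each list, 2493 regions were Reversal-only, 2372 Control-only and 17439 shared. The HF shares, taken with the whole HF list, were then 98.1% and 94.1%, so that the gap toward HF was small. The A/J shares, taken with the whole A/J lists, were 94.5% and 53.8%. In those lists 1051 shared regions ranked 20 points higher, 403 were 1.5-fold wider and 274 narrower, with a median log2 width ratio of 0.022, in fewer regions by construction. Ranked within the whole lists, 2635 regions were 20 points lower. The other 59 of 84 values compared stayed within 1.5 times (counts) or within the interval (shares and medians). No paired analysis was possible because each group has 1 peak list, and for the same reason no replicate could be left out.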

Other observations

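Outside chromosomes 1 to 19, the Reversal list held 955 peaks on the X chromosome, 2.92% of its 32727 peaks, and the Control list 1365, 3.85% of its 35465 peaks. On the Y chromosome they held 103 and 152 peaks. The C57BL/6J HF list had 3.40% of its peaks on the X chromosome, and the A/J lists had 1.51% on Reversal, 1.98% on HF and 1.51% on Control.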
